A study of Mus musculus with 2 samples.

Results

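The calcium/calmodulin-dependent protein kinases (CaM kinases) and the small inhibitors of CaM kinase II were described here in hippocampus of aged mice. The 10 genes were chosen by symbol among the 55536 annotated genes with a row in the deposited tables. They are the 4 subunit genes of CaM kinase II (Camk2a, Camk2b, Camk2d and Camk2g), the inhibitor genes Camk2n1 and Camk2n2, the upstream kinase kinases Camkk1 and Camkk2, and the kinases Camk4 and Camk1d. All 10 were found in the gene table and in both kinds of transcript table, with 91 annotated transcripts between them. The tissue was hippocampus of female B6CASTF1/J mice, a cross of the C57BL/6J and CAST/EiJ strains, aged 18 to 20 months and untreated as far as the labels say. Total RNA (300 ng a library) with ERCC spike-in RNAs was sequenced in 2 libraries of 1 group, numbered as biological replicates 1 and 2. Both libraries carry the same donor label and separate biosample labels, which leaves unstated whether more than 1 animal was used. The labels give no contrast, so no p-value was computed, and each SD describes the spread between these 2 libraries.

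Calcium entering a neuron binds calmodulin, and calcium-loaded calmodulin switches on the CaM kinases. CaM kinase II is a multi-subunit enzyme that phosphorylates itself and can then stay active after calcium has fallen, and in hippocampus it is best known for its role in long-term potentiation at excitatory synapses. The CaM kinase kinases act in a separate cascade, in which they phosphorylate and so activate CaM kinases I and IV, while the inhibitor proteins block active CaM kinase II directly.

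The depth was 35358099 gene-assigned expected counts in replicate 1 and 36307276 in replicate 2, of which the 10 genes took 202120 (0.572%) and 207908 (0.573%). Levels are given in TPM, the authors' abundance corrected for length that sums to 1000000 in a library, first from the table in the layout written by RSEM and then from the table in the layout written by kallisto. In the RSEM layout misc_RNA genes took 35.7% of TPM in replicate 1 and 38.1% in replicate 2, and nuclear protein-coding genes took 41.7% and 40.0%. In the kallisto layout protein-coding genes took 72.2% in both. Each of the 10 genes had a higher mean TPM there, from 1.40 times (Camk1d) to 2.01 times (Camkk2) that of the RSEM layout. Per 1000000 TPM of nuclear protein-coding genes this was not so, and the ratio ran from 0.793 (Camk1d) to 1.14 (Camkk2). Among markers of the labelled tissue, 7 of 7 excitatory neuron genes, 5 of 5 CA1, 4 of 5 CA2, 5 of 5 CA3 and 5 of 5 dentate granule cell genes had at least 1 TPM in both libraries. Lists of neighbouring regions also reached that level, with 4 of 4 thalamic, 4 of 5 striatal and 2 of 4 cerebellar granule cell genes, so it does not set the tissue apart from them. Of the lists for other cell types, 2 are given here because their summed TPM moved most in proportion between the libraries. Astrocyte, microglia, endothelial and oligodendrocyte precursor genes had 0 members over 2-fold apart by counts scaled with TMM factors. Of the 14307 genes averaging 50 or more counts, 0.384% were that far apart. Meningeal fibroblast genes, 7 in all, summed to 55.7 TPM in replicate 1 and 93.5 in replicate 2, with none at 0. By the scaled counts, though not all by TPM, 6 of them were over 2-fold higher in replicate 2. Oligodendrocyte genes, 6 in all, summed to 1197 TPM in replicate 1 and 872 in replicate 2.

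Camk2a, which codes for the alpha subunit that predominates in forebrain excitatory neurons, was by far the most abundant of the family. It stood at 1333 TPM in replicate 1 and 1278 in replicate 2, a mean of 1305 ± 38.8 TPM (SD, n = 2). Among 22015 nuclear protein-coding genes these levels held place 2 in replicate 1 and place 3 in replicate 2. By kallisto it had 2116 and 2035 TPM, place 6 in both libraries. In the authors' deposited table the interval around the posterior mean TPM was 1278 to 1319 in replicate 1 and 1229 to 1266 in replicate 2. Those intervals do not overlap, but the level per 1000000 TPM of nuclear protein-coding genes was 3194 in replicate 1 and 3198 in replicate 2. By kallisto that level was 2928 in replicate 1 and 2819 in replicate 2. Camk2a lies on chromosome 18 (60925618 to 60988152 in mm10, plus strand), and its 118079 and 122381 expected counts made it the deepest measured of the 10 genes.

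Camk2b, the gene of the beta subunit, which binds filamentous actin, came next at 425 TPM in replicate 1 and 387 in replicate 2 (406 ± 27.0 TPM, SD, n = 2). It occupies chromosome 11 from 5969644 to 6066362 on the minus strand. Camk2g, coding for the gamma subunit, known for carrying calmodulin towards the nucleus, stood at 90.7 and 94.9 TPM (92.8 ± 3.01 TPM). Camk2d, whose delta subunit is best known from heart, was the lowest of the 4 at 19.8 and 24.9 TPM (22.3 ± 3.65 TPM). In bulk tissue, fewer cells of a type and less RNA per cell cannot be told apart. Even Camk2d lay above the median of detected protein-coding genes, which was 14.3 TPM in replicate 1 and 13.8 in replicate 2. Each median is over the genes with at least 1 TPM in that library, which numbered 12896 in either.

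**Figure D1:**
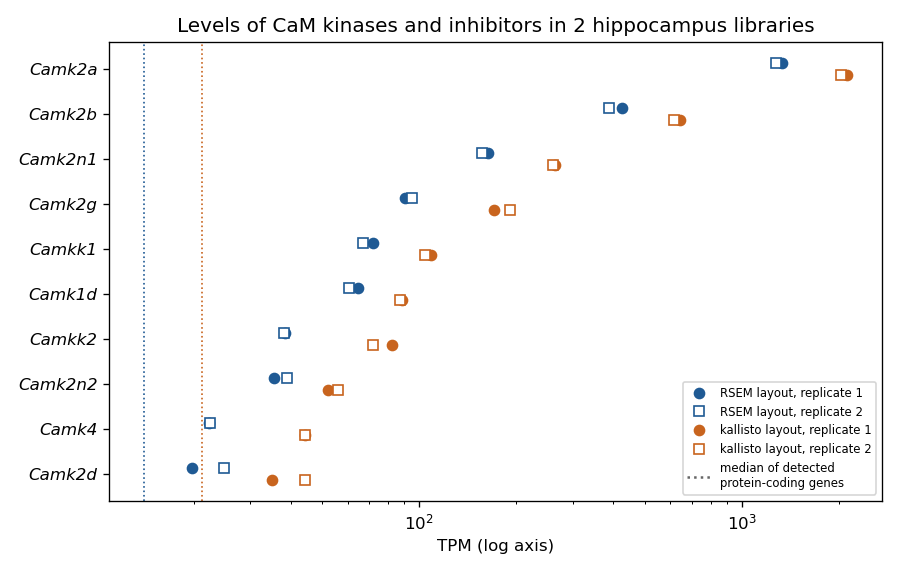
TPM (log axis) of each of the 10 genes in both libraries, with filled circles for replicate 1, open squares for replicate 2, blue for the RSEM layout, orange for the kallisto layout and dotted lines for the median of detected protein-coding genes in each layout. Camk2a lies to the right of every other gene in both layouts, and Camk2d shows the widest gap between libraries relative to its level.

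Placed in order of mean TPM, the 10 genes ran Camk2a, Camk2b, Camk2n1, Camk2g, Camkk1, Camk1d, Camkk2, Camk2n2, Camk4 and Camk2d. The ranges of the 2 libraries did not overlap for 7 of the 9 neighbouring pairs. Camkk2 and Camk2n2 overlapped, at mean levels of 38.2 and 37.2 TPM, and so did Camk4 and Camk2d, at 22.4 and 22.3 TPM. In the kallisto layout the order was the same, with 8 of 9 pairs apart, and there Camk4 and Camk2d again overlapped. Distances between neighbours were unequal. The largest step was that between Camk2a and Camk2b, and the next was Camk2b over Camk2n1 at 2.53 times.

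The alpha to beta ratio, Camk2a TPM over Camk2b TPM, was 3.14 in replicate 1 and 3.30 in replicate 2, a mean of 3.22 ± 0.118 (SD, n = 2). The kallisto layout gave 3.29 in replicate 1 and 3.30 in replicate 2. Expected counts, which are not corrected for length, gave 3.04 and 3.18. The ratio depended on which transcripts entered it. With transcripts of the protein_coding biotype alone it was 3.55 by RSEM and 3.40 by kallisto. With complete coding transcripts alone, a restriction added after seeing the data that drops models whose coding sequence has a missing end, it was 2.61 and 2.68. The gap between these values, from 2.61 to 3.55, is larger than the spread between libraries under any of them.

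**Figure D2:**
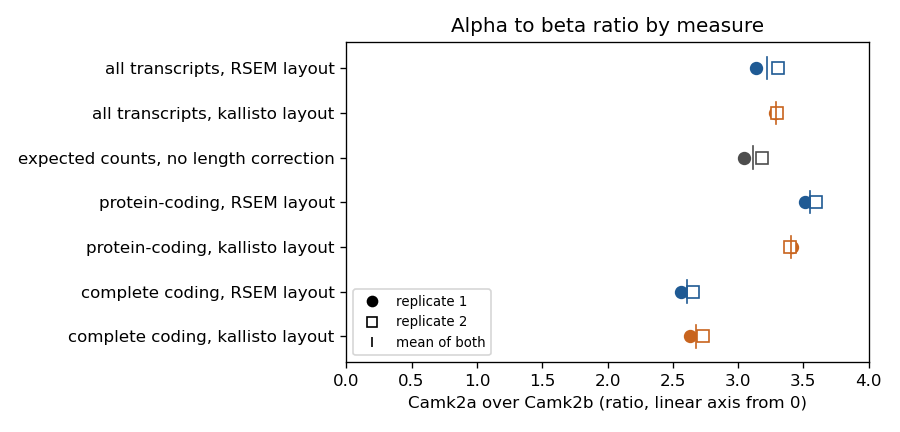
Ratio of Camk2a to Camk2b (linear axis from 0) under 7 measures, with a filled circle for replicate 1, an open square for replicate 2 and a vertical tick for their mean. Points of the 2 libraries lie close together in each row, and the rows for complete coding transcripts lie lowest, at 2.61 and 2.68.

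Together the 4 subunit genes held 1868 TPM in replicate 1 and 1785 in replicate 2 (1826 ± 59.1 TPM, SD, n = 2). Of this total, Camk2a took 71.3% in replicate 1 and 71.6% in replicate 2, and Camk2b took 22.7% and 21.7%. Camk2g held 4.85% and 5.32%, and Camk2d held 1.06% and 1.40%. The make-up was much the same in the kallisto layout, where Camk2a took 71.4% and 70.5%. The leading coding sequences of the 4 genes were between 76.6% and 79.6% identical in the 6 pairwise alignments. Their longest identical run was 32 bases, between Camk2a and Camk2b.

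Both inhibitor genes were present. They code for small proteins that occupy the substrate-binding surface of activated CaM kinase II, and their coding sequences are printed here because the pair differs so much in level while coding for the same activity. Each is on 2 coding exons, Camk2n1 within chr4:138455186-138456785 (plus strand) and Camk2n2 within chr16:20620176-20621194 (minus strand) of mm10. The sequences come from the GENCODE M21 transcripts, without the stop codon. Capitals mark bases identical in the alignment of both.
Camk2n1: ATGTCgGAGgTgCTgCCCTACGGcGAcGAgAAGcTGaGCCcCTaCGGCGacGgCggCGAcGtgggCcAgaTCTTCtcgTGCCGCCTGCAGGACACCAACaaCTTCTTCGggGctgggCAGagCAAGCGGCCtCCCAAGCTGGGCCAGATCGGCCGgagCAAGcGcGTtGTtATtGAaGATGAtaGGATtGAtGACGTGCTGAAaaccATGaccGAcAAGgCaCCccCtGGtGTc
Camk2n2: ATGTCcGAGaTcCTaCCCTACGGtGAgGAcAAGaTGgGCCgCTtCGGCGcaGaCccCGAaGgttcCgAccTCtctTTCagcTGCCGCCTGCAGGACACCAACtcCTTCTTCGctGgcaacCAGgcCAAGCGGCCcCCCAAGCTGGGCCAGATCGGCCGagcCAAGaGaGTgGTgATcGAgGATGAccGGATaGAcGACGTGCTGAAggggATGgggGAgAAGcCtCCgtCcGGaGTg
Of 234 aligned bases, 167 (71.4%) were identical. The longest unbroken match was 23 bases, at positions 133 to 155 of Camk2n1 and 136 to 158 of Camk2n2, counted from the first base of the start codon. That run lies in the part of the coding sequence known to encode the segment that inhibits the kinase.

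Camk2n1 stood at 164 TPM in replicate 1 and 157 in replicate 2 (160 ± 5.03 TPM, SD, n = 2), place 370 and 379 among nuclear protein-coding genes. Camk2n2 was lower, at 35.5 and 38.9 TPM (37.2 ± 2.40 TPM), so that Camk2n1 exceeded it 4.61 times in replicate 1 and 4.03 times in replicate 2. In the kallisto layout the excess was 5.06 and 4.66 times. The summed inhibitor mRNA came to 0.107 of the summed kinase mRNA in replicate 1 and 0.110 in replicate 2 (0.108 ± 0.00206, SD, n = 2), and the kallisto layout gave 0.107 and 0.110. Restricting the genes to complete coding transcripts raised the ratio to 0.142 by RSEM and 0.135 by kallisto, since both inhibitor genes have a single complete transcript and the kinase genes do not. Camk2n2 lies inside the span of Gm49333, a protein-coding gene model on the opposite strand named here after its values were seen. Gm49333 received 0 expected counts in both libraries of the RSEM layout and 64.8 and 95.4 estimated counts in the kallisto layout. Camk2n2 itself had 1079 and 1264 expected counts, against 950 and 1043 in the kallisto layout.

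Each of the 4 subunit genes is spliced into several transcripts, and the share of a gene's TPM given to a transcript was read from the deposited transcript tables. Of the 8 members with more than 1 transcript, 7 had the same leading transcript in both libraries of the RSEM layout and all 8 did in the kallisto layout. The layouts named the same leading transcript for 7 of 8, and Camk2g was the exception. For Camk2a the leader was Camk2a-203, with 18 exons and 1434 coding bases, at 62.7% in replicate 1 and 63.5% in replicate 2. Camk2a-207 followed at 26.9% and 26.1%. It is a 530-base model with both ends of its coding sequence missing, and it held only 3944 and 3914 expected counts, a count share of 3.34% and 3.20%. Camk2a-201, which has 19 exons and 1467 coding bases, took 8.97% and 9.20%. Another model, Camk2a-202, with 6 exons and 567 coding bases, was chosen after its values were seen and was at 0.86% and 0.60% in the RSEM layout but at 10.9% and 10.5% in the kallisto layout.

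Camk2b was the most uniform of the 4, with Camk2b-209 (21 exons, 1626 coding bases) at 85.8% in replicate 1 and 88.1% in replicate 2. The kallisto layout gave 87.5% and 88.4% to the same transcript. Camk2b-211, a 456-base processed transcript, took 7.15% and 5.61% by RSEM and 0% by kallisto, and Camk2b-201 took 2.75% and 2.98%. Camk2g had no dominant transcript. Camk2g-203 was at 22.6% and 17.3%, Camk2g-201 at 20.3% and 19.3%, and the 673-base fragment Camk2g-212 at 15.7% and 20.3%. The kallisto layout put Camk2g-201 first at 27.9% and 25.4% and Camk2g-203 at 9.97% and 6.79%. The 4 complete coding transcripts of Camk2g took 53.5% and 52.7% of its TPM but 86.4% and 85.3% of its expected counts.

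Camk2d was the least settled. Camk2d-206 led with 33.7% in replicate 1 and 22.5% in replicate 2. In these RSEM-layout shares of TPM its gap of 11.2 percentage points was the largest between libraries for any leading transcript. In shares from the posterior mean TPM it was not the largest. There Camk2d-206 was at 22.7% and 17.2%, while the leading Camkk2-201 was at 70.4% and 63.3%. The kallisto layout gave Camk2d-206 34.5% and 26.4%. By RSEM-layout TPM, Camk2d-226 was at 17.7% and 7.25%, and the retained-intron model Camk2d-217 at 16.5% and 11.6%. In the other direction, Camk2d-228 was at 0.81% and 14.7% and Camk2d-203 at 0% and 11.0%, both named after their values were seen. The gene has 28 annotated transcripts and received 1657 and 2169 expected counts, far fewer than Camk2a. Taken over all transcripts, the 9 complete coding models of Camk2d held 66.1% in replicate 1 and 61.3% in replicate 2, and its 12 retained-intron models held 28.7% and 25.5%.

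**Figure D3:**
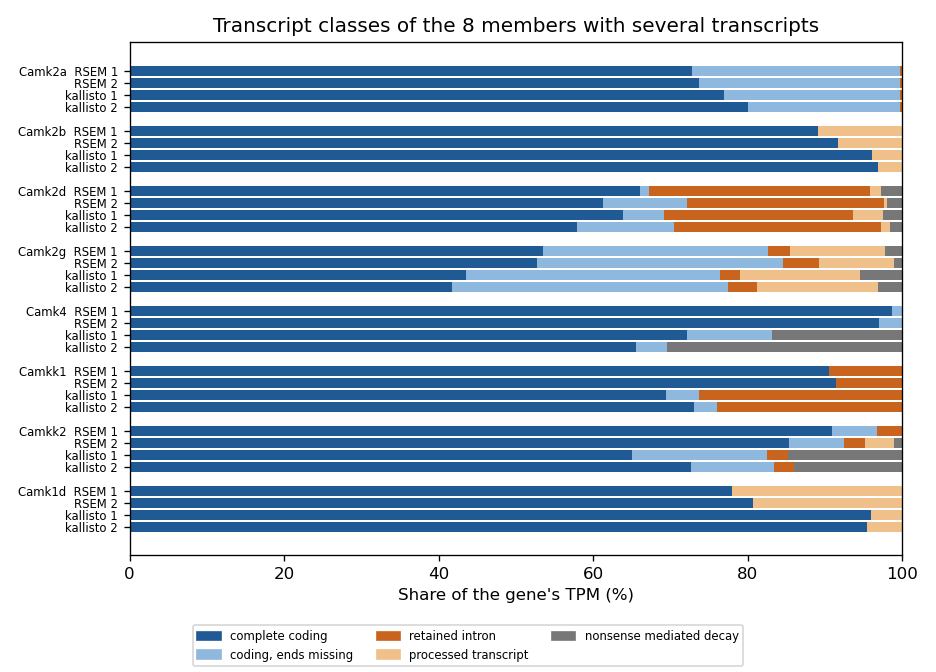
Share of each gene's TPM (%) taken by 5 classes of annotated transcript in the 8 genes with several transcripts, as stacked bars for replicate 1 and 2 of the RSEM layout and of the kallisto layout. Complete coding transcripts take the largest share in each bar, the Camk2d bars have the widest retained-intron segment in the RSEM layout, and the Camk4, Camkk1 and Camkk2 bars differ more between layouts than between libraries.

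Alternative exons were then followed by the TPM of the transcripts that span an exon's position. The TPM of those with the exon was divided by the TPM of those with it and those that skip it. Transcripts that overlap the exon with other boundaries were left out. The linker between the catalytic and association domains of the subunits is known to vary by such exons. A 33-base exon there is known from the alpha, delta and gamma genes for adding a nuclear localisation signal. The exons are printed because genes that share this segment used it to different degrees. Capitals mark the exon, and 15 lower-case bases on either side come from the neighbouring exons of a transcript that includes it (Camk2d-205, Camk2g-201 and Camk2b-208, from GENCODE M21). The exons lie at chr3:126802937-126802969 (plus strand), chr14:20747819-20747851 (minus strand) and chr11:5989936-5989968 (minus strand) of mm10.
Camk2d: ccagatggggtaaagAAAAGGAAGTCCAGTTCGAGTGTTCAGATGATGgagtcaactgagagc
Camk2g: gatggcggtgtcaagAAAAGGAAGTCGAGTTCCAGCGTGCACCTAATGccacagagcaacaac
Camk2b: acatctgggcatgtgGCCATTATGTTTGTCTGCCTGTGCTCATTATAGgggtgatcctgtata
The exons of Camk2d and Camk2g matched at 26 of 33 bases, with a shared run of 11 bases at their start. The Camk2a exon, not printed, matched each of them at 28 of 33 bases. The Camk2b exon matched Camk2d at 7 and Camk2g at 9 of 33 bases, and its flanks are from another place in the coding sequence, so it is only alike in length.

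Inclusion of the 33-base exon was highest in Camk2g, at 44.4% in replicate 1 and 48.1% in replicate 2 of the RSEM layout. The kallisto layout gave 61.6% and 61.8%, and the distance between layouts is larger than that between libraries. In Camk2a it was 12.7% and 12.9%, with 12.1% and 12.4% in the kallisto layout. In Camk2d it was 0.777% and 0%, with 1.53% and 0.00498% in the kallisto layout. The unrelated 33-base exon of Camk2b was at 0.0316% and 0%, with 2.48% and 1.90% in the kallisto layout. These shares rest on how each program divided reads among models, and no reads across exon junctions were counted here.

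A further pair of linker exons, of 45 bases in Camk2b and 42 bases in Camk2d, is shown because the related segments differ in use between the genes. Capitals mark the exon and lower case the 15 bases on either side, taken from Camk2b-209 (chr11:5981070-5981114, minus strand) and Camk2d-206 (chr3:126808208-126808249, plus strand) of GENCODE M21.
Camk2b: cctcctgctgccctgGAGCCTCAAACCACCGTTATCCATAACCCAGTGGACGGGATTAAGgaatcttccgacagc
Camk2d: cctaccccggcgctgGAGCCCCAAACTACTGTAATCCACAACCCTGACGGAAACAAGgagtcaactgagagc
Of 42 aligned bases, 33 (78.6%) were identical. Inclusion of the exon was 96.6% in replicate 1 and 96.3% in replicate 2 for Camk2b, against 51.3% and 56.6% for Camk2d. The kallisto layout gave 94.8% and 94.4% for Camk2b and 56.8% and 60.0% for Camk2d. Another exon of Camk2b, of 75 bases, was included at 96.5% and 96.2%, and its 72-base exon at 99.95% in both libraries. Camk2g stood further from full inclusion, since its 69-base exon stood at 39.1% and 44.5% and its 63-base exon stood at 34.1% and 35.8%. The 60-base exon of Camk2d was at 62.7% in replicate 1 and 75.1% in replicate 2.

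Camk2d also has a pair of 73-base coding exons of which a transcript holds 1 or the other. They are printed, from GENCODE M21 (plus strand), with the differing bases in capitals. The reason is that their estimated inclusion moved more between libraries of the RSEM layout than that of any other exon described here. The upstream exon is chr3:126770785-126770857 and the downstream exon chr3:126771774-126771846.
Camk2d upstream: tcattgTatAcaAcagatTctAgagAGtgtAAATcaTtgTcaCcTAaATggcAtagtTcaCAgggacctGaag
Camk2d downstream: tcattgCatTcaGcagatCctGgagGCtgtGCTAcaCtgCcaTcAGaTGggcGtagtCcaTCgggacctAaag
They were identical at 50 of 73 bases (68.5%). Inclusion of the upstream exon was 94.9% in replicate 1 and 79.3% in replicate 2, and that of the downstream exon was 5.08% and 20.7%. In the kallisto layout the upstream exon stood at 81.6% and 74.3%. Replicate 2 was thus lower for the upstream exon in both layouts, by an amount that differed between them. The downstream share rested on 2 transcripts of low level, together 0.69 TPM in replicate 1 and 3.61 in replicate 2 of the RSEM layout.

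**Figure D4:**
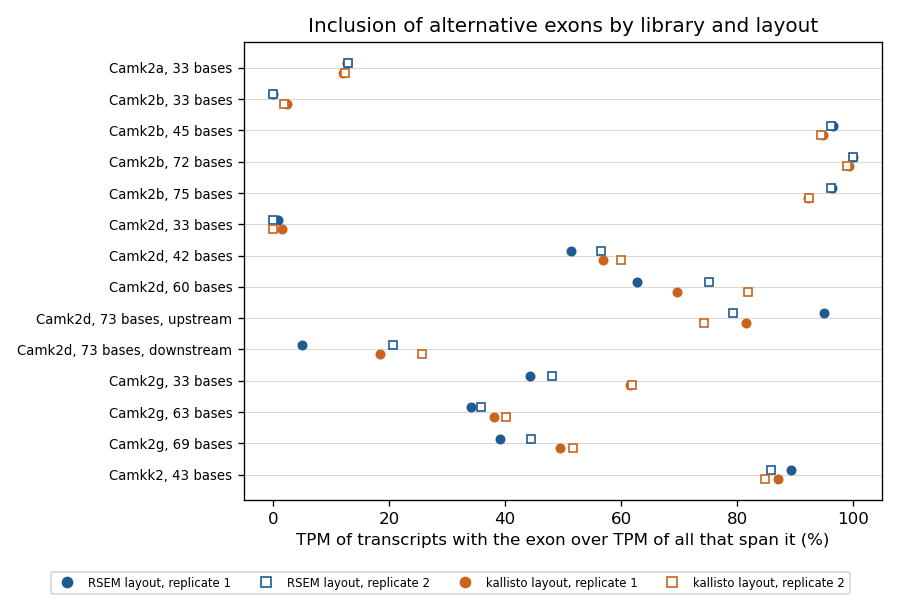
Inclusion (%) of 14 alternative coding exons, as the TPM of transcripts with the exon over the TPM of those with it and those that skip it. Transcripts that overlap the exon with other boundaries are left out. Filled circles are replicate 1, open squares replicate 2, blue the RSEM layout and orange the kallisto layout. The 33-base exon stands between 12.1% and 12.9% in Camk2a, at no more than 2.48% in Camk2b and Camk2d and at 44.4% or more in Camk2g, and the Camk2d points are the most scattered.

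The kinase kinases were both expressed at moderate levels. Camkk1 stood at 72.0 TPM in replicate 1 and 67.2 in replicate 2 (69.6 ± 3.42 TPM, SD, n = 2). Camkk2, which also phosphorylates the energy sensor AMPK, stood at 38.3 and 38.2 TPM (38.2 ± 0.0990 TPM). Camkk1 exceeded Camkk2 1.88 times in replicate 1 and 1.76 times in replicate 2. The excess was smaller in the kallisto layout, at 1.32 and 1.45 times. Camkk1-201 took 90.6% and 91.4% of Camkk1 in the RSEM layout, against 69.4% and 73.1% by kallisto. The difference went largely to the retained-intron model Camkk1-203, at 9.44% and 8.57% there and 26.3% and 23.9% by kallisto. The third model, Camkk1-202, was at 0% in the RSEM layout in both libraries.

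For Camkk2, the transcript Camkk2-201 led with 75.7% in replicate 1 and 67.1% in replicate 2 of the RSEM layout. Camkk2-211 was at 9.01% and 11.5% and Camkk2-202 at 6.31% and 6.87%. In the kallisto layout Camkk2-201 led with 54.3% and 58.7%, so replicate 2 was the higher there. The model of Camkk2 annotated as subject to nonsense-mediated decay took 14.7% and 14.0% by kallisto, against 0% and 1.05% by RSEM. A 43-base coding exon near the end of the gene is shown because its length is not a multiple of 3, so that transcripts without it continue in another reading frame. It lies at chr5:122736988-122737030 (minus strand), in capitals between 15 bases of its neighbours in Camkk2-201 of GENCODE M21.
Camkk2: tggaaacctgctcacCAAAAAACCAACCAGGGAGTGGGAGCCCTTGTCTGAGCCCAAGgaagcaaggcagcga
Inclusion of this exon was 89.4% in replicate 1 and 85.8% in replicate 2, and 87.1% and 84.9% in the kallisto layout. Here the layouts differed by less than the libraries did in the RSEM layout.

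Camk1d codes for CaM kinase I delta, a substrate of the kinase kinases. It stood at 64.5 TPM in replicate 1 and 60.7 in replicate 2 (62.6 ± 2.67 TPM, SD, n = 2), the highest level among the CaM kinase I and IV genes of the 10. Its main transcript Camk1d-201 took 62.4% and 64.4%. Camk1d-202, which begins at another first exon inside the gene, took 15.6% and 16.2%. The 653-base processed transcript Camk1d-204 took 20.3% and 17.3% in the RSEM layout but 3.97% and 4.52% in the kallisto layout, where Camk1d-201 was at 73.4% and 75.1%. The 2 coding transcripts kept their order in both libraries and both layouts.

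The 250 bases before each of these starts are shown, as RefSeq places them on GRCm38.p6, because the data separate the transcripts that begin there. RefSeq windows were found for 6 of the 10 genes, and Camk1d alone had more than 1. The first window, chr2:5714763-5715012 (minus strand), ends 247 bases before the GENCODE start of Camk1d-201. The other, chr2:5676047-5676296 (minus strand), ends at the start of Camk1d-202. Capitals mark the GC box letters GGGCGG on either strand.
Camk1d-201: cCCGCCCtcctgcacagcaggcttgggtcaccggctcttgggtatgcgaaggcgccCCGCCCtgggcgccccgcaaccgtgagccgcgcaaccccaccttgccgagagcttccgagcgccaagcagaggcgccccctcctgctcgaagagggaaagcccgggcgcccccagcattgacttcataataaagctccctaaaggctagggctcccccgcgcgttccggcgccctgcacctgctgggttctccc
Camk1d-202: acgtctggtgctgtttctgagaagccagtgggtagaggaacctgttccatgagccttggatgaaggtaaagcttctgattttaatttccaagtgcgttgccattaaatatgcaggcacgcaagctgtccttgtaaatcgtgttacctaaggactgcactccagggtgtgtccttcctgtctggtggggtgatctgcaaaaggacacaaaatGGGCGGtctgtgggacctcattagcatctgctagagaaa
The window of Camk1d-201 was 69.2% G and C with 22 CpG and 2 GC box matches. That of Camk1d-202 was 48.4% G and C with 5 CpG and 1 match. Over all 32851 RefSeq windows of this length the medians were 52.4% G and C and 6 CpG, and 32.7% held a GC box match. Neither window held TATAAA or TGACGTCA on either strand, which 12.4% and 1.55% of all windows did.

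Camk4, the gene of CaM kinase IV, a mostly nuclear kinase that phosphorylates the transcription factor CREB, stood at 22.4 TPM in replicate 1 and 22.5 in replicate 2 (22.4 ± 0.113 TPM, SD, n = 2). In the kallisto layout it was at 44.2 and 44.4 TPM. In RSEM-layout TPM the 2 libraries were closer for Camk4 and Camkk2 than for the other 8 genes, but in kallisto-layout TPM Camkk2 was at 82.2 and 71.7. Camk4-201 took 98.7% and 97.1% of the gene in the RSEM layout. In the kallisto layout it had 72.1% and 65.6% and 16.9% and 30.5% went to Camk4-203, a model annotated as subject to nonsense-mediated decay that was at 0% in the RSEM layout. Camk4-202, a fragment, was at 1.26% and 2.93%. The antisense gene 2310026I22Rik, which overlaps the start of Camk4 and was also named after its values were seen, had 2 and 3 expected counts.

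Between the libraries the 10 genes were close. After scaling the counts with TMM factors, 0 of the 10 differed over 2-fold, a size that 0.384% of the 14307 genes averaging 50 or more counts reached. None passed 1.5-fold, reached by 1.64% of genes, and Camk2d alone passed 1.2-fold, reached by 10.4%. No test was run on these differences, with 1 library on each side. The median size of the log2 ratio was 0.05 over the 10 genes and 0.07 over all 14307. By scaled counts 6 genes were higher in replicate 2 and 4 in replicate 1. The median log2 ratio was 0.02 over the 10 genes, against 0.00 over all genes.

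Camk2d had 1677 scaled counts in replicate 1 and 2143 in replicate 2, a fold of 1.28 with an exact 95% binomial interval of 1.198 to 1.363. That interval covers counting error only. The size of its log2 ratio, 0.35, was larger than that of 94.2% of genes. The kallisto layout gave 1.25 (1.18 to 1.33). Camk2n2 followed at 1.14 (1.05 to 1.24), with 1.08 (0.989 to 1.18) in the kallisto layout, and Camk2g at 1.08 (1.04 to 1.13). Camk2a was at 1.01 (1.00 to 1.02) by scaled counts, although its TPM was lower in replicate 2, and Camk1d at 1.01 (0.978 to 1.04) showed the same turn. The lowest was Camkk2 at 0.947 (0.907 to 0.990). Over the 7 meningeal fibroblast markers the median log2 ratio was 1.08, and over the 6 oligodendrocyte markers it was -0.35. Their part in the Camk2d difference was not tested.

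**Figure D5:**
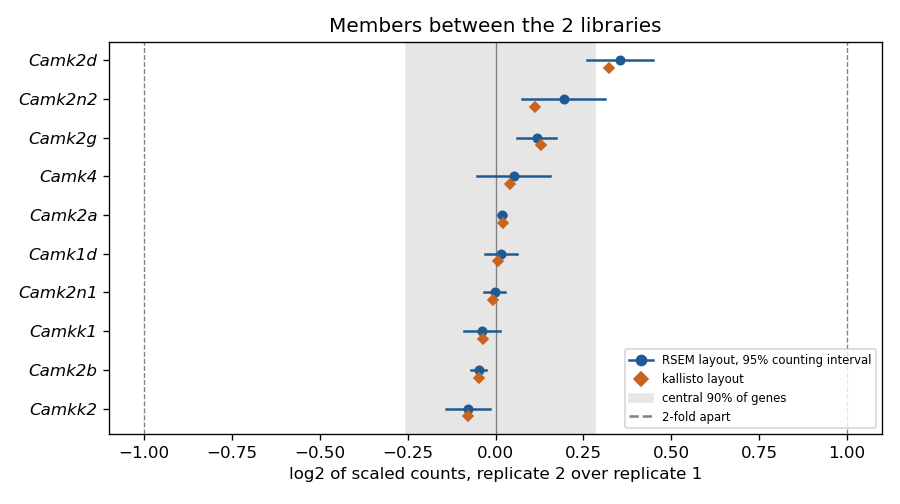
Log2 ratio of scaled counts, replicate 2 over replicate 1, for the 10 genes, with blue circles and 95% counting intervals for the RSEM layout and orange diamonds for the kallisto layout. The grey band holds the central 90% of the 14307 genes compared, and the dashed lines mark 2-fold. Camk2d at 0.35 is the only point outside the band on the RSEM side.

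Other genes around the kinases were read from 8 lists. Of their genes averaging 50 or more counts, 0 differed over 2-fold between the libraries by scaled counts. Over all 14307 genes with such counts the share was 0.384%, so few would be reached in lists of this size. In the list of 3 further CaM kinase I genes and a related pseudokinase, all 4 had at least 1 TPM in both libraries. The pseudokinase gene Camkv was highest at 232 TPM in replicate 1 and 216 in replicate 2, above each of the CaM kinase genes except Camk2a and Camk2b. Pnck, coding for CaM kinase I beta, stood at 54.5 and 55.2 TPM, Camk1 at 21.5 and 21.3 TPM and Camk1g at 10.7 and 10.3 TPM. Of 14 other calmodulin-dependent or related kinases, 10 reached 1 TPM in both. Dclk1, a doublecortin-like kinase, led with 215 TPM in both libraries, Dapk1 had 57.4 and 47.1 TPM, Dclk2 had 40.9 and 37.3 TPM, and the muscle myosin kinase gene Mylk2 was at 0.01 TPM in both.

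Upstream of the kinases, calmodulin genes were abundant. Calm2 stood at 883 TPM in replicate 1 and 833 in replicate 2 and Calm3 at 861 and 829 TPM. Both lay between Camk2a and Camk2b, and all 7 genes of the list of calmodulins and calmodulin-binding reservoirs passed 1 TPM, with Pcp4l1 lowest at 19.2 and 19.1 TPM. Of 8 genes of calcineurin, the calmodulin-dependent phosphatase, and its regulators, 7 passed 1 TPM in both. Ppp3ca led with 499 and 469 TPM, Ppp3r1 had 355 and 327 TPM and Ppp3cb had 116 and 108 TPM, while Ppp3r2, known from testis, was at 0.13 TPM in both. All 7 phosphatase genes that act on CaM kinases passed 1 TPM. Ppp1cb stood at 181 and 160 TPM, Ppp1ca at 108 and 103 TPM and Ppm1e at 96.4 and 86.6 TPM, with Ppm1f lowest at 22.8 and 22.2 TPM.

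Partners and targets were present as well. All 12 synaptic partners of CaM kinase II passed 1 TPM, led by the scaffold gene Dlg4 at 348 TPM in replicate 1 and 327 in replicate 2 and the AMPA receptor gene Gria1 at 287 and 266 TPM. Actn2 was the lowest at 7.14 and 6.32 TPM. All 13 nuclear targets passed 1 TPM, from Hdac5 at 104 and 103 TPM, Mef2d at 82.7 and 80.5 TPM and Mef2a at 57.6 and 53.3 TPM down to Atf1 at 9.43 and 6.38 TPM. The list of targets of the kinase kinases holds 5 kinase genes and is not complete, and all 5 passed 1 TPM. It leaves out Camk1d, at 64.5 and 60.7 TPM, and the CaM kinase I genes Pnck and Camk1g. Within the list, Akt1 had 68.2 and 63.4 TPM, Camk4 and Camk1 followed, and Prkaa2, a catalytic subunit of AMPK, was lowest at 6.80 and 7.09 TPM.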

How the data were processed

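Total RNA libraries of aged hippocampus were sequenced, and the tables deposited by the authors were used as they stand. Per the file headers, the gene table holds the authors' expected counts, TPM and FPKM per gene, with posterior mean TPM and its interval, whose level no header states. Transcript tables in the same layout hold the authors' expected counts, TPM and the percent of the gene's abundance given to each transcript. A second deposited transcript table in the kallisto layout holds estimated counts and TPM. Deposited notes name the mm10 build with GENCODE M21 annotation. What aligned the reads, in which version and with which strand setting, is not given in the sources used here, so reads of overlapping or antisense genes, and of transcripts that share exons, may have been divided among them by the programs' models.

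Expected counts were rounded to whole numbers. ERCC rows and 26248 numbered rows without a gene name, which held 2.78 and 6 counts, were kept out of library totals, and no column of another sample was found (0 unused columns). Libraries were scaled with TMM factors in edgeR 4.0.16 under R 4.3.3, with DESeq2 1.42.0 size factors as an alternative. Folds are replicate 2 over replicate 1 of scaled counts for genes averaging 50 or more counts, with exact 95% binomial intervals for the split of a gene's reads between libraries. Without molecular identifiers, such intervals cover counting error only. Ratios and sums were computed per library from TPM. No test between conditions exists with 1 group, so none was run. Sequences came from GENCODE M21 transcripts and RefSeq promoter windows, aligned with Biopython 1.88. Python 3.11.15, pandas 2.3.3 and numpy 2.4.6 were used.

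The members, lists, thresholds and alternatives were chosen with earlier results of these data known. Named were the 10 members, of each member's transcripts the 3 with the largest mean share and the kallisto leader, of each list its 3 highest genes and its lowest, and any overlapping gene model with at least 50 expected counts. The last was Gm43011, inside Camk2d on the same strand, with 40 and 51 expected counts. Other names are marked in the text. Some genes within this rule are left out of the text.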

Additional observations from a re-analysis of the deposited data

How the results depend on the processing

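No paired analysis was possible because nothing is contrasted: both libraries belong to 1 group. Leaving out either library gave an alpha to beta ratio of 3.14 to 3.30, a CaM kinase II total of 1785 to 1868 TPM, an inhibitor to kinase ratio of 0.107 to 0.110 and a sum over the 10 genes of 2169 to 2265 TPM. Protein_coding transcripts alone gave an alpha to beta ratio of 3.55 (RSEM layout) and 3.40 (kallisto layout), totals of 1762 and 2845 TPM and inhibitor ratios of 0.112 and 0.111. Complete coding transcripts alone, added after seeing the data, gave ratios of 2.61 and 2.68, totals of 1387 and 2338 TPM and inhibitor ratios of 0.142 and 0.135. The kallisto layout with all transcripts put the total at 2926 TPM and the sum over the 10 genes at 3558 TPM, against 2217 TPM. Per 1000000 TPM of nuclear protein-coding genes the total and the sum were 4471 and 5426 in the RSEM layout and 4051 and 4926 in the kallisto layout. FPKM gave a sum of 1623. A bound of 1.2-fold in place of 2-fold called 1 gene, Camk2d. Genes over 2-fold apart numbered 55 of 14307 at a mean count of at least 50, but 437 of 18350 at 10, 15 of 11291 at 200 and 6293 of 27775 with no minimum, with 0 of the 10 genes among them each time. The sign of the log2 ratio turned for Camk2a (-0.06) and Camk1d (-0.09) with TPM, and for Camk2n1 with DESeq2 factors (0.0066) and ERCC totals (0.0041). The cause was not tested. Among leading transcripts, that of Camk2d differed most between libraries in RSEM-layout share of TPM, by 11.2 percentage points, but not in share of posterior mean TPM. Camk2d had 1657 and 2169 counts over 28 transcripts, and the part of this in the gap was not tested.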
